A study of Mus musculus with 13 samples.

Results

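Axon guidance ligands and receptors were followed by RNA-Seq in the hippocampus of LIN28A-cKO and LIN28A WT mice after pilocarpine-induced status epilepticus (SE), a state of continuous convulsive seizures. The genes were chosen by name: 64 protein-coding genes, out of 45777 genes in the table, whose symbols place them among the class 3 to 7 semaphorins (Sema), plexins (Plxn), neuropilins (Nrp), Eph receptors (Eph), ephrins (Efn), Slits, Robos and netrins (Ntn). They comprised 20 semaphorins, 9 plexins, 2 neuropilins, 14 Eph receptors, 8 ephrins, 3 Slits, 4 Robos and 4 netrins, or 35 ligands and 29 receptors, with semaphorins and ephrins counted as ligands. SE-cKO mice (3 libraries) carried Nestin-Cre::Lin28aloxP/loxP and received pilocarpine, at 260 mg/kg for males and 280 mg/kg for females, and SE-WT mice (3 libraries) carried Nestin-Cre::Lin28a+/+ and received the same doses. Sham-cKO mice (4 libraries) and sham-WT mice (3 libraries) had these genotypes and received saline. All groups carried Nestin-Cre, which is active in neural progenitors and is meant to remove floxed Lin28a from the cells that descend from them. The study describes the deletion as one in all neuronal lineages, and deletion in other cells, such as microglia or blood vessels, was not checked here. Hippocampi were taken on day 3 from mice injected at 6 weeks of age, and mice that did not reach SE were left out of the SE groups. Pilocarpine was preceded by scopolamine methyl nitrate and terbutaline and followed by diazepam. The labels call the libraries of a group biological replicates and do not give the sex of a mouse.

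Guidance ligands attract or repel growing axons and migrating cells. Semaphorins act through plexins, with neuropilins as co-receptors of most class 3 members, ephrins bind Eph receptors and both partners can signal because both sit in a membrane, Slits repel through Robos, and netrins attract or repel through Dcc and Unc5 receptors. In the adult hippocampus the same genes are known for mossy fiber and dendritic spine structure and for the placement of newborn granule cells, and several of them are also used by glia and blood vessels.

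Library totals ranged from 59659977 to 84354243 counts. Lin28a itself had 3 counts in SE-WT replicate 3 and 0 in the other 12 libraries, so the deletion could not be checked at the RNA level. Prox1, a marker of dentate granule cells, averaged 82.1 CPM (counts scaled to a fixed library total) in SE-cKO, 44.0 CPM in SE-WT, 79.8 CPM in sham-cKO and 62.0 CPM in sham-WT, and markers of granule and CA pyramidal cells were read in every library. The mean of Prox1 was thus not lower in SE-cKO than in sham-cKO. The 8 granule cell genes, Prox1 among them, had a median log2 fold change against sham of -0.64 in SE-cKO and -0.92 in SE-WT. Some libraries also stood apart in genes of neighboring tissue. The 8 striatal genes summed to 1633 CPM in SE-WT replicate 2, against 49.5 to 199 CPM in the other 12 libraries, and the 8 thalamic genes summed to 1095 CPM in SE-WT replicate 3 and 1794 CPM in sham-cKO replicate 2, against 131.8 to 242 CPM elsewhere. The 8 choroid plexus genes ranged from 25.9 to 4582 CPM with high and low libraries in each group. Xist, an RNA of female cells, had 0, 491 and 329 CPM in SE-cKO and 0.311, 0.313, 307 and 1.92 CPM in sham-cKO. It had 1.29, 408 and 0.0622 CPM in SE-WT and 3.00, 180.5 and 259 CPM in sham-WT. High and low Xist values were thus unevenly spread over the groups, and the dose differed by sex. The part of sex or dose in the changes after SE was not tested beyond a fit with Xist level as a covariate. Among cell type markers, 8 of 8 microglial genes rose after SE in both genotypes. Of 8 reactive astrocyte genes, 8 rose in SE-cKO and 7 in SE-WT, of 8 oligodendrocyte precursor genes 7 and 1, and of 8 endothelial genes 5 and 0. Of 8 granule cell genes, 4 fell in SE-cKO and 3 in SE-WT, and of 7 CA pyramidal cell genes tested 3 and 1. The part of these markers in the changes of guidance genes was not tested, and in bulk tissue fewer cells of a type cannot be told apart from less RNA per cell.

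The sequence before the transcription start is shown for 4 guidance genes on which the results turn: Sema4c and Epha4, the ones called after SE in both genotypes, and Epha2 and Robo1, the largest called rise and the largest called fall in SE-cKO. Sequences are the 250 bases before a RefSeq start on GRCm38.p6 (mm10), written 5′ to 3′ on the strand of the gene, with matches to the AP-1 motif (TGANTCA), the CRE half-site (TGACG) and the STAT motif (TTCNNNGAA) in capitals. The 4 windows lie at chr1:36558382-36558631 (minus strand) for the first of the Sema4c starts listed, chr1:77515089-77515338 (minus strand) for Epha4, chr4:141300971-141301220 (plus strand) for Epha2 and chr16:72662899-72663148 (plus strand) for Robo1. The Sema4c, Epha4 and Robo1 starts lie inside the annotated gene spans, that of Epha4 close to the 5′ end.
Sema4c: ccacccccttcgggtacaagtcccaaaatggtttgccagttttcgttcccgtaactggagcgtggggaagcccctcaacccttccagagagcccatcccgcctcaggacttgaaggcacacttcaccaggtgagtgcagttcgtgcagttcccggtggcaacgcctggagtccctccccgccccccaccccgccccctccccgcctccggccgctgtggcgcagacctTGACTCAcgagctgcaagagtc
Epha4: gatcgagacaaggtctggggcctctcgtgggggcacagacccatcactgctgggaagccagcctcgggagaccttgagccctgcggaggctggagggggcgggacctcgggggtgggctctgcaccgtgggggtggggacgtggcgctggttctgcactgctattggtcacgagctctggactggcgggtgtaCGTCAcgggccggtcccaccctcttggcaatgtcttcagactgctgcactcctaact
Epha2: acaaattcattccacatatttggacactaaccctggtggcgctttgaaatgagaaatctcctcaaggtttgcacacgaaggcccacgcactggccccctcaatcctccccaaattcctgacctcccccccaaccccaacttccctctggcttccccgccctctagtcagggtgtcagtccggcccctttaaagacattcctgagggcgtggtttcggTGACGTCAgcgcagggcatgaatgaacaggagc
Robo1: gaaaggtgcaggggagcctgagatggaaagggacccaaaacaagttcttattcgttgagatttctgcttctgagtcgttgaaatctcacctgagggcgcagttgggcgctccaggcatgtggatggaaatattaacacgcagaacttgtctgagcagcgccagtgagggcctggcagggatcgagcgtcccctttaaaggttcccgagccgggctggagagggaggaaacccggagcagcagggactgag
Sema4c held an AP-1 match at 22 to 16 bases before the start, with the letters TGACTCA. The window of the other Sema4c start listed held no match to AP-1, the CRE half-site or the STAT motif. Epha4 held 1 CRE half-site, on the other strand, at 57 to 53 bases before the start, and Epha2 held a pair of half-sites at 33 to 29 and 30 to 26 bases before the start that overlap in the full palindrome TGACGTCA. Robo1 held none of these motifs. Searched on both strands, AP-1 was found in 3 of 72 upstream windows of 56 guidance genes (4.17%), against 6.75% of 32851 windows of all genes, the CRE half-site in 6 (8.33%, against 17.8%), the STAT motif in 2 (2.78%, against 7.02%) and the GC box GGGCGG in 51 (70.8%, against 32.7%). A match describes these letters only, and the data did not measure binding.

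In sham hippocampus the guidance genes ranged from abundant to barely read. TPM, which is scaled by gene length and can be compared between genes, averaged at least 10 over the 7 sham libraries for 25 genes, and below 1 for 4 genes (Robo4, Efna4, Epha2 and Epha1). Epha4, an Eph receptor that binds both ephrin classes, was the most abundant at 138 ± 17.8 TPM. It was followed by Epha7, a receptor of ephrin-A ligands, at 52.0 ± 13.3 TPM and by Nrp1, the co-receptor of Sema3a, at 36.6 ± 6.98 TPM, and the ranges of Epha7 and Nrp1 overlapped. Slit1, a repellent ligand, was the highest of its family at 32.0 ± 9.37 TPM, as were Sema7a, a membrane-anchored semaphorin, at 25.6 ± 7.13 TPM, Efnb3, a transmembrane ephrin, at 23.1 ± 3.78 TPM and Ntn4, a netrin of basement membranes, at 2.47 ± 0.457 TPM (SD, n = 7 for each). Receptors of the EphA class held 4 of the 5 highest Eph levels in TPM, and Epha4 alone held 45.3 ± 3.16% of the TPM of all 14 Eph receptors in sham-cKO and 46.7 ± 1.24% in sham-WT.

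**Figure D1:**
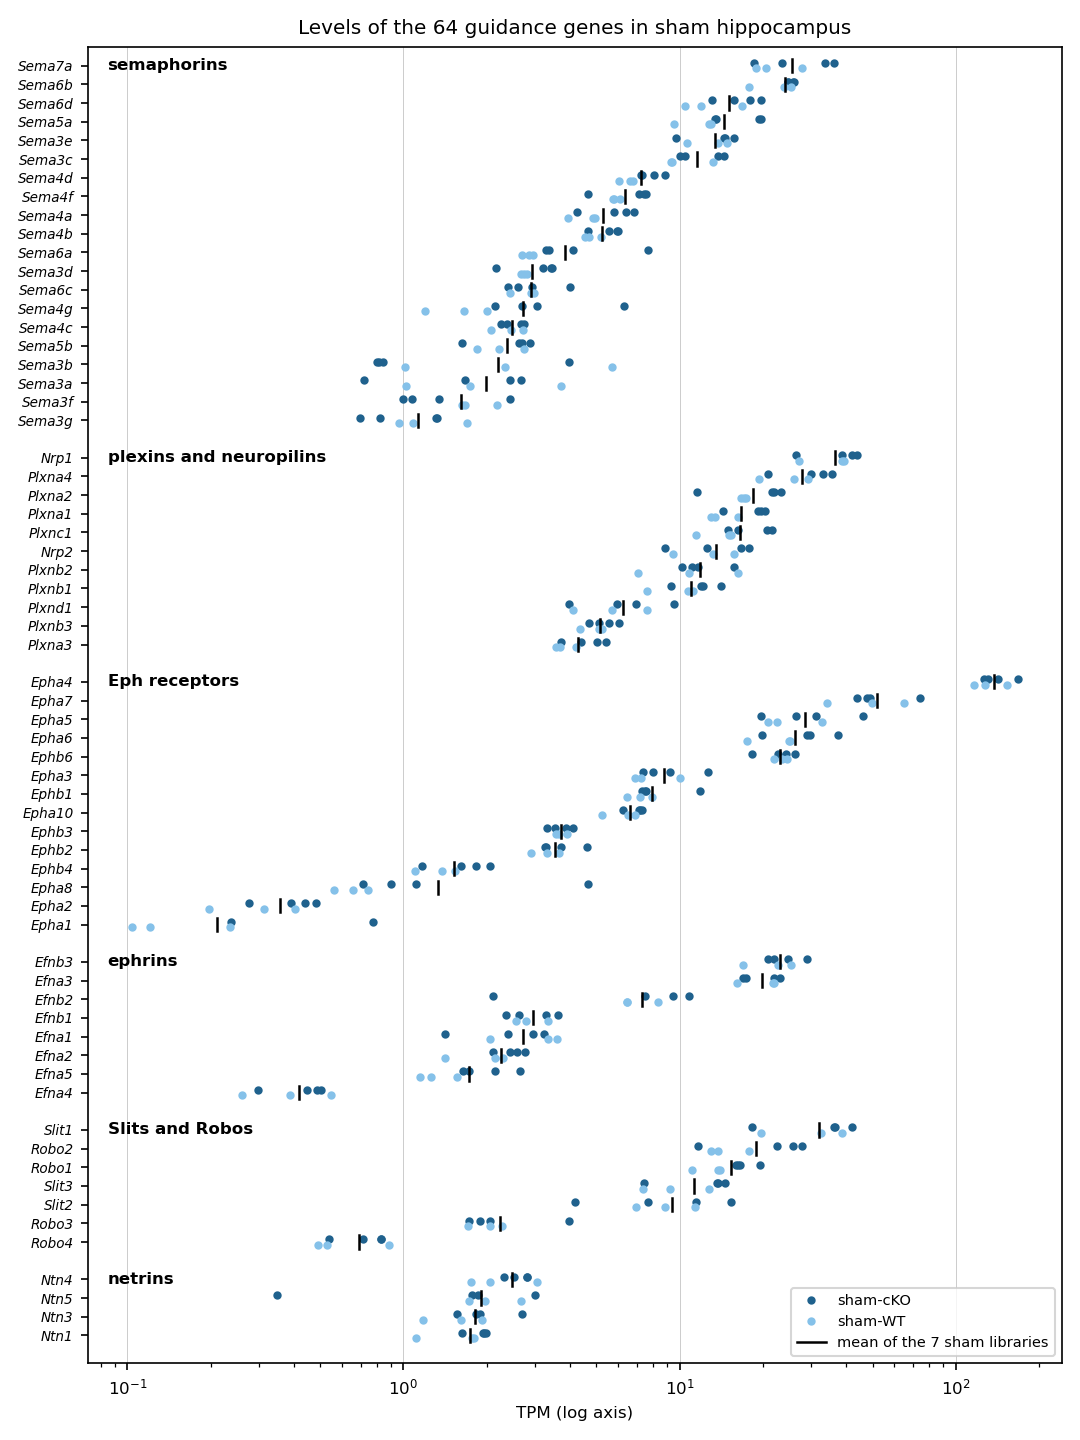
TPM of the 64 guidance genes in the sham-cKO (dark points) and sham-WT (light points) libraries, by family and on a log axis, with a black tick at the mean of the 7 sham libraries and libraries at 0 TPM (Epha1) not drawn. Epha4 had the highest mean TPM (138) and Epha1 the lowest (0.210).

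All 64 guidance genes passed the filter on low counts and were tested in each comparison. After SE, 9 guidance genes rose and 9 fell in cKO mice (14.1% each, SE-cKO against sham-cKO), where 13.8% of all 21307 genes tested rose and 8.92% fell. In WT mice 2 rose and 2 fell (3.12% each, SE-WT against sham-WT), where 4.57% of 20803 genes rose and 0.832% fell. An unadjusted p below 0.05 was found for 28 guidance genes in SE-cKO, beside 35.2% of all genes, and for 20 in SE-WT, beside 20.8%. DESeq2 called 9 higher and 14 lower in SE-cKO, beside 16.3% and 13.1% of all genes, and 5 higher and 10 lower in SE-WT, beside 9.11% and 3.83%. The shares that rose were near the background in both genotypes. With 1 library left out the counts in SE-cKO ranged from 5 (without sham-cKO replicate 1 or 4) to 9 higher and from 6 (without SE-cKO replicate 2) to 14 (without sham-cKO replicate 2) lower, and those in SE-WT from 0 to 2 higher and 0 to 4 lower, with 0 higher without any 1 sham-WT library. Sema4c rose and Epha4 fell in both genotypes, 8 genes rose and 8 fell in SE-cKO alone, Sema4a rose and Epha7 fell in SE-WT alone, and 44 were called in neither. Log2 fold changes are given ± the standard error of the fit, and a gene was called at an adjusted p (Benjamini-Hochberg, over all genes tested) below 0.05. In a fit of all groups without the 3 libraries rich in striatal or thalamic transcripts, which leaves 1 SE-WT library that is assumed to vary like the other groups, SE-WT gained calls of Efna5, Sema3d and Sema4d (higher) and of Epha6, Robo1 and Slit1 (lower) and lost that of Epha7. In the same fit SE-cKO gained Efnb2, Epha3, Epha8, Plxna2, Slit2 and Slit3 (lower) and lost Efna1 and Robo4. A call in 1 genotype alone is not a difference between genotypes, which is tested further on. The median log2 fold change was -0.14 in SE-cKO and -0.06 in SE-WT, beside -0.00059 and 0.015 over all genes tested. Libraries of the groups did not overlap for 10 higher and 17 lower guidance genes in SE-cKO against sham-cKO, where 17.9% and 17.8% of all genes did not overlap, and for 6 higher and 11 lower in SE-WT against sham-WT, where 16% and 12.9% did not.

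**Figure D2:**
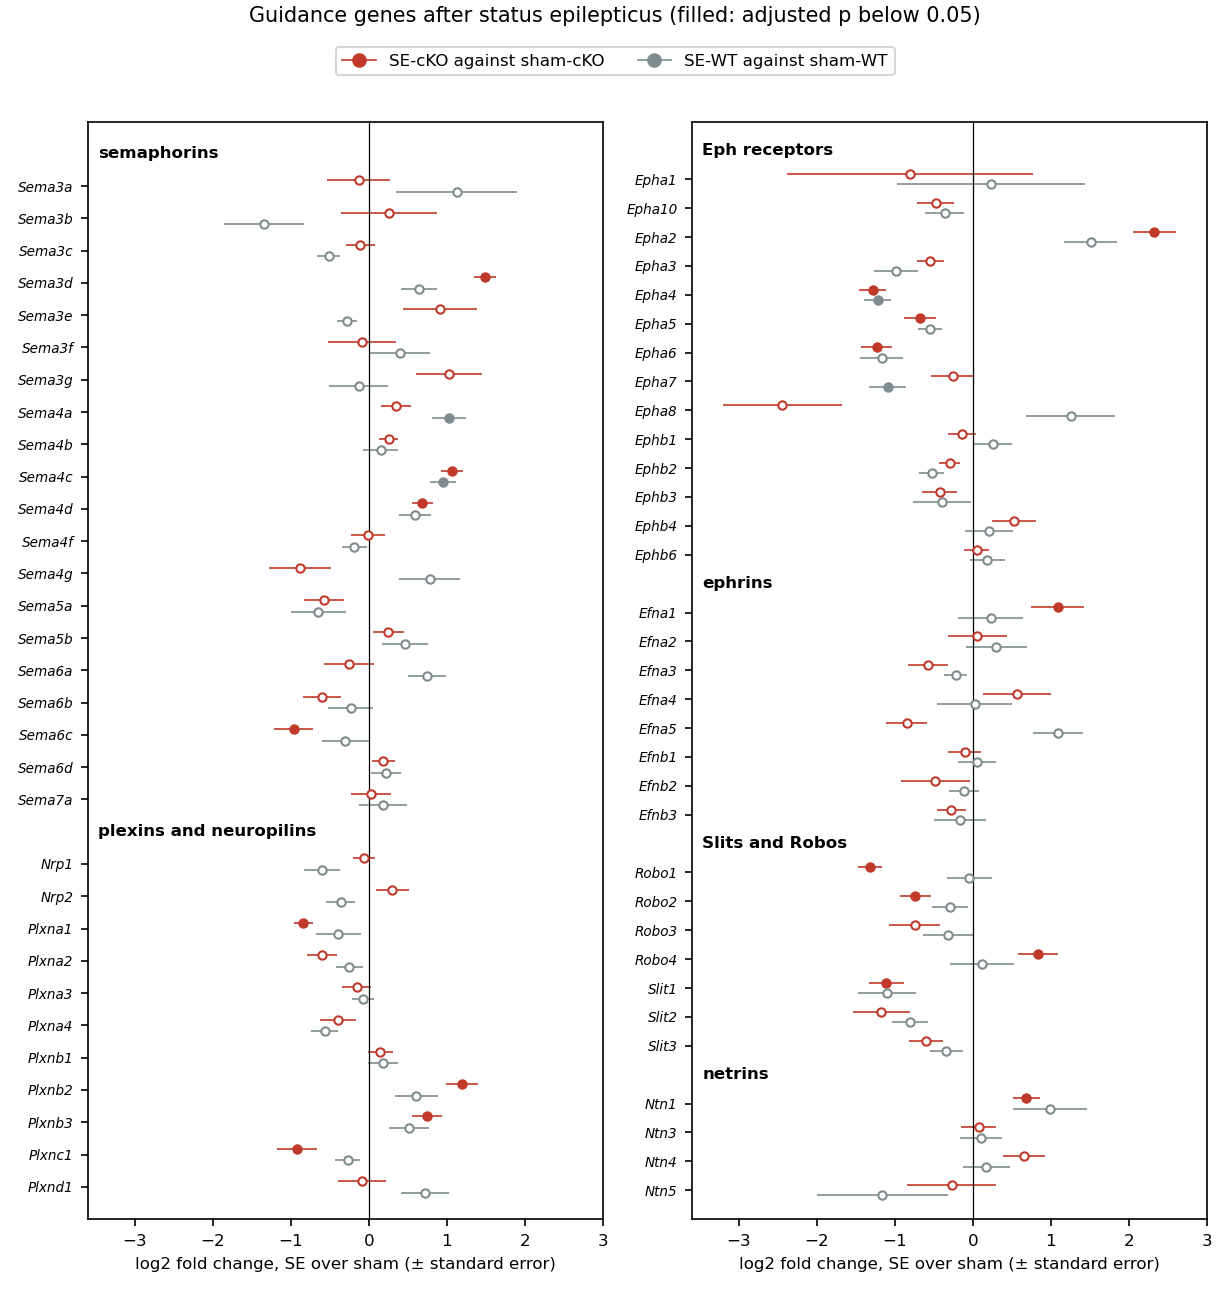
Log2 fold change after SE for each of the 64 guidance genes, SE-cKO against sham-cKO (red) and SE-WT against sham-WT (gray), with the standard error of the edgeR fit and filled points for an adjusted p below 0.05. In SE-cKO, 9 genes lie filled to the right of 0 and 9 to the left, and in SE-WT 2 and 2.

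Among receptors, 4 of 29 rose and 7 fell in SE-cKO (median log2 fold change -0.39), and 0 rose and 2 fell in SE-WT (median -0.27). Among ligands, 5 of 35 rose and 2 fell in SE-cKO (median -0.01), and 2 rose and 0 fell in SE-WT (median 0.11). Over all genes tested, 13.8% rose and 8.92% fell in SE-cKO, and 4.57% rose and 0.832% fell in SE-WT. The counts by role here and by family below stand beside these shares, and roles and families were not tested against each other. Among the guidance genes, those that fell in SE-cKO were also the more abundant ones: their median level in sham libraries was 18.9 TPM (2.89 to 138 TPM), against 2.71 TPM (0.358 to 11.9 TPM) for those that rose and 5.78 TPM for the 46 that were not called. Levels by call were not compared over all genes.

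Of 20 semaphorins, 3 rose and 1 fell in SE-cKO, and 2 rose and 0 fell in SE-WT, and those that rose were mainly of class 4, the transmembrane members that bind B-type plexins. Sema4c, a ligand of Plxnb2, had 17.2, 15.3 and 15.9 CPM in the SE-cKO libraries, against 7.48, 8.93, 7.15 and 8.28 CPM in sham-cKO, and 16.1, 13.2 and 14.2 CPM in SE-WT, against 7.11, 7.03 and 8.37 CPM in sham-WT. Every SE library lay above every sham library, and the values within a group were close. The log2 fold change was 1.07 ± 0.14 in SE-cKO and 0.95 ± 0.17 in SE-WT (adjusted p = 0.00121 and adjusted p = 0.0218, edgeR). Sema3d, a secreted semaphorin of class 3, had 36.8, 42.1 and 38.4 CPM in SE-cKO, against 14.8, 11.3, 16.1 and 15.4 CPM in sham-cKO, and 31.3, 18.1 and 20.0 CPM in SE-WT, against 16.1, 13.3 and 15.1 CPM in sham-WT. The SE libraries were again all above their sham libraries, by a wide margin in SE-cKO and by a small one for SE-WT replicates 2 and 3. It rose by 1.49 ± 0.15 on the log2 scale in SE-cKO (adjusted p = 0.000230, edgeR), the smallest adjusted p of the 64 genes, and had a log2 fold change of 0.64 ± 0.23 in SE-WT (adjusted p = 0.173), which was 1.10 and called (adjusted p = 0.00285) in the fit without the 3 libraries rich in striatal or thalamic transcripts, with 1 SE-WT library left. Sema4d, another ligand of B-type plexins, had 40.3, 40.9 and 41.3 CPM in SE-cKO, against 23.9, 32.1, 23.6 and 25.3 CPM in sham-cKO, and 38.3, 27.3 and 47.5 CPM in SE-WT, against 28.1, 23.2 and 23.4 CPM in sham-WT. The cKO groups did not overlap, whereas SE-WT replicate 2 fell among the sham-WT libraries. On the log2 scale the change was 0.69 ± 0.14 in SE-cKO (adjusted p = 0.00798, edgeR) and 0.59 ± 0.21 in SE-WT (adjusted p = 0.164).

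Sema4a, a class 4 semaphorin also known from immune cells, had 18.1, 13.2 and 21.7 CPM in SE-cKO, against 15.2, 11.8, 14.3 and 16.0 CPM in sham-cKO, and 33.8, 27.6 and 19.5 CPM in SE-WT, against 12.2, 13.3 and 13.9 CPM in sham-WT. The WT groups did not overlap and the cKO groups did. It rose in SE-WT, by a log2 change of 1.03 ± 0.22 (adjusted p = 0.0425, edgeR), and its change in SE-cKO was 0.35 ± 0.19 (adjusted p = 0.228). Sema6c, a transmembrane semaphorin of the class that binds A-type plexins, had 4.98, 3.13 and 4.30 CPM in SE-cKO, against 7.33, 8.94, 6.59 and 10.6 CPM in sham-cKO, and 5.59, 5.30 and 11.2 CPM in SE-WT, against 8.73, 8.84 and 9.54 CPM in sham-WT. All SE-cKO libraries lay below all sham-cKO libraries. It was the only semaphorin called lower, with a log2 fold change of -0.96 ± 0.25 in SE-cKO (adjusted p = 0.0242, edgeR) and of -0.30 ± 0.30 in SE-WT (adjusted p = 0.634), where SE-WT replicate 3 lay above all sham-WT libraries. Sema7a, the most abundant semaphorin by TPM, had 62.7, 53.1 and 82.7 CPM in SE-cKO, against 55.1, 87.9, 43.8 and 82.0 CPM in sham-cKO, and 67.9, 39.5 and 100.1 CPM in SE-WT, against 61.0, 68.7 and 51.9 CPM in sham-WT, with groups that overlapped throughout. The 16 semaphorins not called in SE-cKO had log2 fold changes from -0.89 (Sema4g) to 1.03 (Sema3g). Sema3d lies in a stretch of chromosome 5 (GRCm38) that also holds Sema3a, Sema3e and Sema3c, and these 3 neighbors had log2 fold changes of -0.13, 0.92 and -0.11 in SE-cKO, none of them called. Sema3d and Sema4c kept their calls in SE-cKO under 16 of 16 alternatives, Sema4d under 15 and Sema6c under 11, the last lost without sham-cKO replicate 4, SE-cKO replicate 2 or SE-cKO replicate 3 (log2 fold change -1.11 to -0.80 with 1 library left out). In SE-WT the calls held under 10 of 15 alternatives for Sema4c and 9 for Sema4a. Both were lost without any 1 of the sham-WT libraries or SE-WT replicate 1, and Sema4a also without SE-WT replicate 2 (0.86 to 1.03 and 0.83 to 1.24).

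Of the plexins and neuropilins, the receptors of semaphorins, 2 of 11 rose and 2 fell in SE-cKO and 0 were called in SE-WT, where 3 of the 11 (Plxna4, Plxnd1 and Nrp1) had an unadjusted p below 0.05. Plxnb2, a receptor of Sema4c and 1 of the B-type plexins, had 167, 133 and 97.7 CPM in SE-cKO, against 56.3, 53.7, 75.1 and 55.4 CPM in sham-cKO, and 90.0, 87.4 and 113 CPM in SE-WT, against 42.6, 56.4 and 91.0 CPM in sham-WT. The cKO groups did not overlap, and in WT 1 sham library, replicate 3, lay above SE-WT replicates 1 and 2. Its log2 fold change was 1.195 ± 0.20 in SE-cKO (adjusted p = 0.00404, edgeR) and 0.61 ± 0.27 in SE-WT (adjusted p = 0.267). Plxnb2 made up 24.4 ± 5.23% of the TPM of the 9 plexins in SE-cKO, against 9.66 ± 1.55% in sham-cKO, and 16.9 ± 1.17% in SE-WT, against 10.5 ± 3.03% in sham-WT (SD over libraries). Plxnb3, a plexin known from oligodendrocytes, had 35.6, 45.7 and 29.5 CPM in SE-cKO, against 19.6, 28.1, 19.8 and 23.7 CPM in sham-cKO, and rose with a log2 fold change of 0.75 ± 0.19 (adjusted p = 0.0250, edgeR). In WT it had 25.8, 28.1 and 51.0 CPM after SE, against 23.7, 23.3 and 26.0 CPM in sham (0.52 ± 0.26, adjusted p = 0.310). The gap between the cKO groups was small, since sham-cKO replicate 2 came close to SE-cKO replicate 3, and the WT groups overlapped. Plxnb3 lies on the X chromosome, and the part of sex in its values was not tested beyond the Xist covariate. The oligodendrocyte precursor genes, of which 7 of 8 rose in SE-cKO, summed to 555 to 622 CPM in SE-cKO and 290 to 374 CPM in sham-cKO, and to 378 to 694 CPM in SE-WT and 307 to 325 CPM in sham-WT. SE-WT replicate 3, the highest of them, was also the highest SE-WT library for Plxnb3 and Sema4d. In SE-cKO the precursor genes were highest in replicate 1, Plxnb3 in replicate 2 and Sema4d in replicate 3. Of 8 genes of mature oligodendrocytes 1 rose in SE-cKO and 0 in SE-WT (median log2 fold change 0.16 and 0.36), and they summed to 3244 to 4203 CPM in SE-cKO, 2753 to 5256 CPM in sham-cKO, 2692 to 7956 CPM in SE-WT and 3435 to 4293 CPM in sham-WT. Their highest libraries, SE-WT replicate 3 and sham-cKO replicate 2, were also the highest of their groups for Plxnb3. In the other groups Plxnb3 was highest in SE-cKO replicate 2 and sham-WT replicate 3, where the oligodendrocyte genes were lowest (3244 and 3435 CPM). The part of these cells in the values was not tested.

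Plxna1, a signaling partner of neuropilins, had 70.0, 64.5 and 59.99 CPM in SE-cKO, against 122, 103, 131.8 and 123 CPM in sham-cKO, and 81.2, 48.1 and 115 CPM in SE-WT, against 106, 91.6 and 121 CPM in sham-WT. The cKO groups lay apart, and SE-WT replicate 3 lay within sham-WT. Plxna1 fell in SE-cKO with a log2 fold change of -0.84 ± 0.12 (adjusted p = 0.00174, edgeR), and its change in SE-WT was -0.39 ± 0.29 (adjusted p = 0.504). Plxnc1, the receptor of Sema7a, had 64.2, 50.8 and 30.5 CPM in SE-cKO, against 105, 90.8, 112 and 75.2 CPM in sham-cKO, and 78.3, 71.6 and 56.9 CPM in SE-WT, against 75.0, 81.6 and 92.0 CPM in sham-WT. It fell in SE-cKO (-0.92 ± 0.26, adjusted p = 0.0338, edgeR), and in WT SE replicate 1 overlapped sham (-0.27 ± 0.16, adjusted p = 0.397). Nrp1 had 137, 150.4 and 163 CPM in SE-cKO, against 184, 125, 179 and 158.9 CPM in sham-cKO, and 116, 77.8 and 145 CPM in SE-WT, against 145, 173 and 192 CPM in sham-WT. The groups overlapped in cKO, and in WT the highest SE library came within 1 CPM of the lowest sham library. Its log2 fold change was -0.06 ± 0.14 in SE-cKO and -0.60 ± 0.23 in SE-WT, neither called (adjusted p = 0.816 and adjusted p = 0.198, edgeR). The 7 uncalled plexins and neuropilins in SE-cKO had log2 fold changes from -0.60 (Plxna2) to 0.30 (Nrp2). The calls in SE-cKO held under 16 of 16 alternatives for Plxna1, 15 for Plxnb2, 12 for Plxnc1 and 11 for Plxnb3. Plxnc1 was lost without sham-cKO replicate 1, sham-cKO replicate 3 or SE-cKO replicate 2 (-1.17 to -0.64 with 1 library left out), and Plxnb3 without any 1 of sham-cKO replicates 1, 3 and 4 and SE-cKO replicates 1 and 2 (0.57 to 0.92). Plxna1 shares 10.7% of its exon bases with a gene on the other strand, and the strand setting of the counting is not given in the sources used here.

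**Figure D3:**
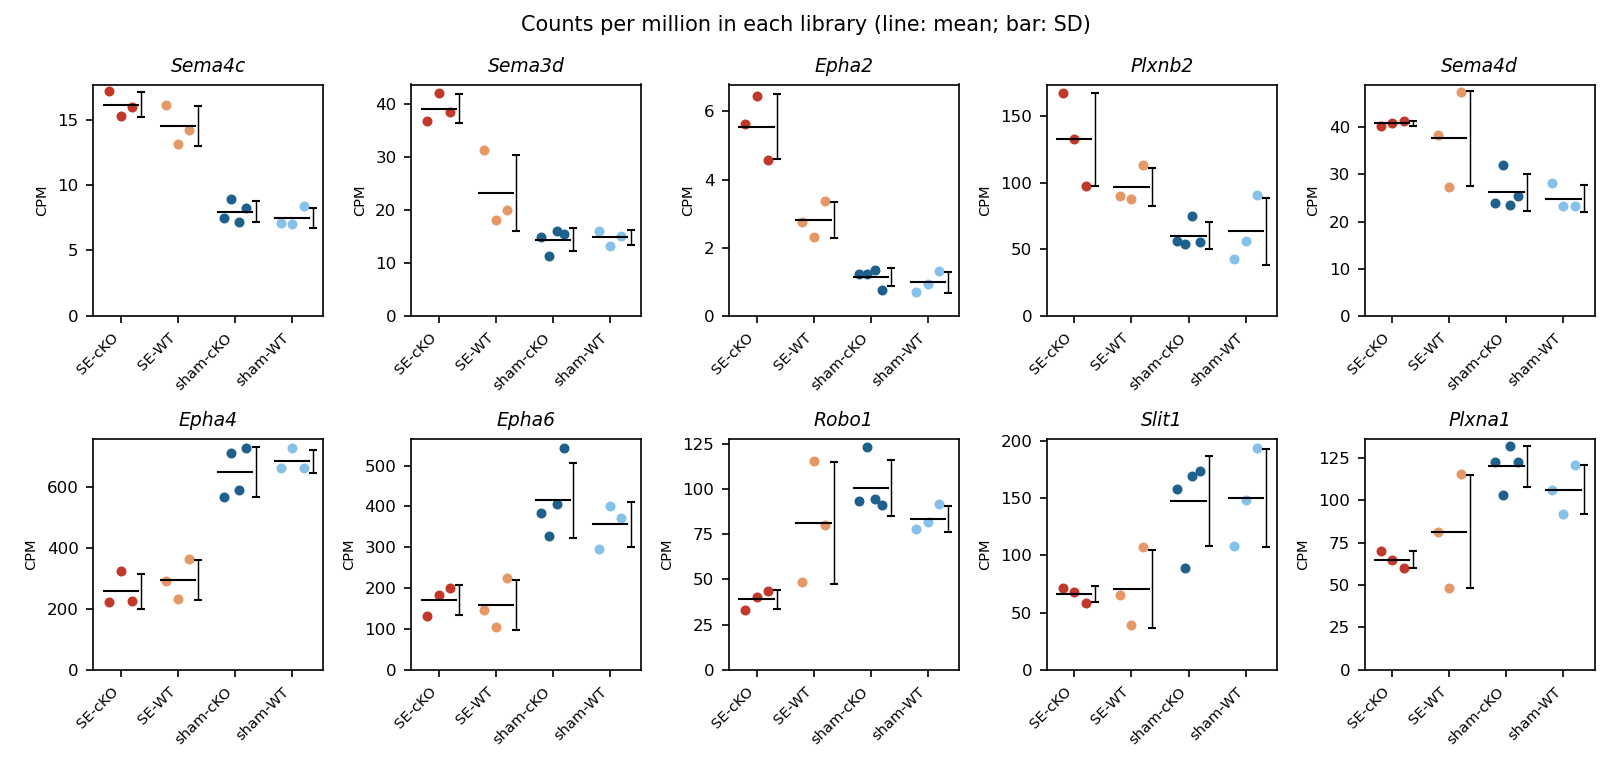
CPM in each library for 5 guidance genes that rose (upper row) and 5 that fell (lower row) in SE-cKO against sham-cKO, with a line at the mean and a bar of 1 SD beside it (n = 3, 3, 4 and 3 from left to right). Epha4 had 223 to 325 CPM in SE-cKO and 232 to 363 CPM in SE-WT, all below the sham libraries, whereas Robo1 fell in SE-cKO and spread from 48.4 to 116 CPM in SE-WT.

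Receptors of the EphA class moved in both directions: 1 of 9 rose and 3 fell in SE-cKO, and 0 rose and 2 fell in SE-WT. Epha4 had 223, 325 and 228 CPM in SE-cKO, against 569, 714, 592 and 731 CPM in sham-cKO, and 291, 232 and 363 CPM in SE-WT, against 662, 730.1 and 665 CPM in sham-WT. No SE library reached the lowest sham library in either genotype. Group means ± SD were 259 ± 58.0 CPM (n = 3) for SE-cKO, 651 ± 82.9 CPM (n = 4) for sham-cKO, 295 ± 65.3 CPM (n = 3) for SE-WT and 686 ± 38.5 CPM (n = 3) for sham-WT. Epha4 fell by a log2 fold change of -1.28 ± 0.18 in SE-cKO and -1.22 ± 0.17 in SE-WT (adjusted p = 0.00129 and adjusted p = 0.00971, edgeR). Its share of the TPM of all Eph receptors was 30.3 ± 4.63% in SE-cKO, against 45.3 ± 3.16% in sham-cKO, and 35.1 ± 2.87% in SE-WT, against 46.7 ± 1.24% in sham-WT, and the ranges of SE and sham libraries did not overlap in either genotype.

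Epha6, a receptor of ephrin-A ligands, had 131, 182 and 200.4 CPM in SE-cKO, against 384, 328, 406 and 544 CPM in sham-cKO, and 147, 104 and 226 CPM in SE-WT, against 295, 400.1 and 372 CPM in sham-WT. The SE libraries lay below the sham libraries in both genotypes. Its log2 fold change was -1.23 ± 0.20 in SE-cKO (adjusted p = 0.00325, edgeR) and -1.17 ± 0.28 in SE-WT, where it did not pass the threshold (adjusted p = 0.0594). Epha5, another receptor of ephrin-A ligands, had 92.5, 101 and 109 CPM in SE-cKO, against 169, 122, 144 and 234 CPM in sham-cKO, and 122, 98.7 and 104 CPM in SE-WT, against 142, 188 and 144 CPM in sham-WT. The groups again did not overlap, with log2 fold changes of -0.68 ± 0.21 in SE-cKO (adjusted p = 0.0443, edgeR) and -0.55 ± 0.16 in SE-WT (adjusted p = 0.100). Epha7 had 102, 224 and 199 CPM in SE-cKO, against 185, 216, 174 and 288 CPM in sham-cKO, and 77.1, 87.4 and 136 CPM in SE-WT, against 176, 253 and 209 CPM in sham-WT. The 3 SE-WT libraries were below all sham-WT libraries, whereas SE-cKO replicates 2 and 3 lay within the sham-cKO range. Epha7 fell in SE-WT, by a log2 change of -1.09 ± 0.24 (adjusted p = 0.0461, edgeR), and had -0.26 ± 0.27 in SE-cKO (adjusted p = 0.565).

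Epha2, a receptor of ephrin-A ligands best known from epithelial cells and vessels, was among the least abundant members by TPM in sham libraries and had the largest called rise. It had 5.65, 6.45 and 4.57 CPM in SE-cKO, against 1.23, 1.24, 1.35 and 0.750 CPM in sham-cKO, and 2.75, 2.32 and 3.36 CPM in SE-WT, against 0.701, 0.936 and 1.31 CPM in sham-WT. The SE-cKO libraries were above the SE-WT libraries, and these above all sham libraries. The log2 fold change was 2.33 ± 0.28 in SE-cKO (adjusted p = 0.000651, edgeR) and 1.51 ± 0.34 in SE-WT (adjusted p = 0.0518). The value in sham-cKO replicate 4 rests on 45 counts, the fewest of the 13 libraries. Of the EphA receptors without a call, Epha1, Epha3 and Epha10 had log2 fold changes of -0.81, -0.54 and -0.48 in SE-cKO and 0.23, -0.98 and -0.36 in SE-WT. The 5 EphB receptors were called in neither genotype, with log2 fold changes from -0.43 to 0.53 in SE-cKO and from -0.52 to 0.26 in SE-WT. In SE-cKO the calls of Epha2, Epha4 and Epha6 held under 16 of 16 alternatives and that of Epha5 under 8, which was lost without any 1 of the libraries other than sham-cKO replicate 2 (-0.82 to -0.50 with 1 library left out). In SE-WT, Epha4 was called under 13 of 15 alternatives and lost without sham-WT replicate 2 or 3 (-1.37 to -1.07), and Epha7 was called under 6 and lost without any 1 library other than SE-WT replicate 3 (-1.35 to -0.94).

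Of 8 ephrins, 1 rose in SE-cKO and 0 were called in SE-WT, where 1 (Efna5) had an unadjusted p below 0.05. Efna1, an ephrin-A ligand of Epha2, had 7.88, 4.39 and 4.08 CPM in SE-cKO, against 3.09, 1.68, 3.42 and 2.45 CPM in sham-cKO, and 5.86, 2.13 and 4.94 CPM in SE-WT, against 4.45, 4.00 and 2.50 CPM in sham-WT. The cKO groups were apart and the WT groups overlapped. The log2 fold change of 1.09 ± 0.34 in SE-cKO was just past the threshold (adjusted p = 0.0495, edgeR) and was called under only 4 of 16 alternatives, being lost without any 1 library other than SE-cKO replicate 3 (0.73 to 1.30 with 1 library left out), and the change in SE-WT was 0.23 ± 0.42 (adjusted p = 0.805). Efna1 lies on chromosome 3 close to Efna3 and Efna4 (GRCm38), whose log2 fold changes in SE-cKO were -0.57 and 0.57, neither called. Efnb3, the most abundant ephrin by TPM, had 56.9, 38.2 and 39.2 CPM in SE-cKO, against 56.3, 53.3, 66.4 and 48.6 CPM in sham-cKO, and 29.5, 45.4 and 78.7 CPM in SE-WT, against 49.0, 54.9 and 67.0 CPM in sham-WT. All its groups overlapped, and SE-WT alone covered more than the range of both sham groups.

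Of the repellent Slits and their Robo receptors, 1 of 3 Slits and 2 of 4 Robos fell in SE-cKO, 1 Robo rose, and 0 of the 7 were called in SE-WT, where Slit1 and Slit2 had an unadjusted p below 0.05. Slit1 had 71.6, 68.0 and 58.2 CPM in SE-cKO, against 158, 89.0, 169 and 173 CPM in sham-cKO, and 65.1, 39.4 and 107 CPM in SE-WT, against 108, 148 and 194 CPM in sham-WT. SE libraries were below sham libraries in both genotypes, but SE-WT replicate 3 came close to sham-WT replicate 1. On the log2 scale the change was -1.11 ± 0.23 in SE-cKO (adjusted p = 0.00955, edgeR) and -1.10 ± 0.37 in SE-WT (adjusted p = 0.148), nearly the same size with a call in 1 of them. Slit2 and Slit3, the other Slit ligands, had log2 fold changes of -1.17 and -0.60 in SE-cKO and -0.81 and -0.34 in SE-WT, none called. Robo1, a Slit receptor, had 33.4, 40.1 and 43.9 CPM in SE-cKO, against 93.3, 124, 94.3 and 90.9 CPM in sham-cKO, and 48.4, 116 and 79.9 CPM in SE-WT, against 77.7, 81.6 and 91.7 CPM in sham-WT. All SE-cKO libraries were below all others, and the SE-WT libraries lay on both sides of sham-WT, the highest being the library high in striatal genes. It fell by a log2 fold change of -1.32 ± 0.15 in SE-cKO (adjusted p = 0.000512, edgeR), and had -0.05 ± 0.29 in SE-WT (adjusted p = 0.954). In the fit without the 3 libraries rich in striatal or thalamic transcripts, where SE-WT replicate 1 alone stands for its group, Robo1 was called lower in SE-WT too (-0.77, adjusted p = 0.0338).

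Robo2, the neighbor of Robo1 on chromosome 16 (GRCm38) and also a Slit receptor, had 80.2, 115 and 106 CPM in SE-cKO, against 182, 123, 170.3 and 217 CPM in sham-cKO, and 178, 148 and 95.4 CPM in SE-WT, against 181, 176 and 158 CPM in sham-WT. The cKO groups were apart, SE-cKO replicate 2 being close to sham-cKO replicate 2, and the WT groups overlapped. Its log2 fold change was -0.74 ± 0.20 in SE-cKO (adjusted p = 0.0280, edgeR) and -0.29 ± 0.23 in SE-WT (adjusted p = 0.531). Robo4, which is expressed by endothelial cells, had 4.05, 3.08 and 3.01 CPM in SE-cKO, against 2.07, 2.29, 2.00 and 1.499 CPM in sham-cKO, and 1.60, 1.84 and 3.46 CPM in SE-WT, against 1.91, 1.46 and 2.93 CPM in sham-WT. It rose in SE-cKO (0.84 ± 0.26, adjusted p = 0.0481, edgeR) and had 0.12 ± 0.41 in SE-WT (adjusted p = 0.906). The endothelial marker genes, of which 5 of 8 rose in SE-cKO and 0 in SE-WT, summed to 152.9 to 301 CPM in SE-cKO, 148 to 195 CPM in sham-cKO, 147 to 258 CPM in SE-WT and 165 to 178 CPM in sham-WT, and their part in the Robo4 values was not tested. Calls in SE-cKO held under 16 of 16 alternatives for Robo1, 15 for Slit1, 9 for Robo2 and 4 for Robo4. Robo3, a Robo of commissural neurons, had -0.74 in SE-cKO and -0.31 in SE-WT, not called. Robo2 was lost without any 1 of sham-cKO replicates 1, 3 and 4 and SE-cKO replicates 1 and 3 (-0.88 to -0.58 with 1 library left out), and Robo4 without any 1 library other than SE-cKO replicate 3 (0.69 to 0.95).

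Of 4 netrins, 1 rose in SE-cKO, and 0 were called or had an unadjusted p below 0.05 in SE-WT. Ntn1, the classical attractant of commissural axons, had 14.3, 9.85 and 12.2 CPM in SE-cKO, against 7.95, 7.44, 8.19 and 7.65 CPM in sham-cKO, and 7.42, 26.4 and 9.77 CPM in SE-WT, against 5.75, 7.66 and 8.47 CPM in sham-WT. Sham values were narrow, all SE-cKO libraries lay above them, and the highest SE-WT value came from replicate 2, the library high in striatal genes. It rose in SE-cKO (0.69 ± 0.17, adjusted p = 0.0202, edgeR), was called under 10 of 16 alternatives and lost without sham-cKO replicate 1 or 4 (0.56 to 0.82 with 1 library left out), and had 0.99 ± 0.47 in SE-WT (adjusted p = 0.290), which was 0.05 in a fit of all groups without the 3 libraries rich in striatal or thalamic transcripts. Ntn4 had 9.82, 4.87 and 6.18 CPM in SE-cKO, against 3.96, 5.37, 4.81 and 4.18 CPM in sham-cKO, and 5.62, 3.33 and 6.24 CPM in SE-WT, against 3.81, 5.52 and 4.07 CPM in sham-WT, with overlapping groups and no call. Ntn3 and Ntn5 had log2 fold changes of 0.07 and -0.27 in SE-cKO, neither called.

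Whether LIN28A deletion changed guidance genes after SE was asked by comparing SE-cKO with SE-WT. In edgeR 0 of 64 guidance genes were called, beside 0% of 21126 genes tested, and 9 had an unadjusted p below 0.05, which 9.68% of all genes had. DESeq2 called 1 higher (Epha2) and 2 lower (Efna5 and Epha8), beside 1.45% and 1.08% of all genes, and limma voom called 0. Libraries did not overlap for 3 higher and 3 lower guidance genes, where 7.65% and 7.39% of all genes did not. Efna5, an ephrin-A ligand of Epha receptors, had the smallest p, with 4.87, 3.86 and 3.92 CPM in SE-cKO and 17.8, 10.1 and 8.91 CPM in SE-WT, beside 6.06, 11.1, 8.12 and 6.23 CPM in sham-cKO and 7.25, 4.99 and 4.97 CPM in sham-WT. All SE-cKO libraries were below all SE-WT libraries, and also below all sham-cKO libraries, whereas all SE-WT libraries were above all sham-WT libraries. The log2 fold change of SE-cKO over SE-WT was -1.52 ± 0.32 (adjusted p = 0.296, edgeR, and adjusted p = 0.00123, DESeq2). It was -2.07 in a fit of all groups without the 3 libraries rich in striatal or thalamic transcripts. That fit leaves only SE-WT replicate 1, the highest of SE-WT for Efna5, and assumes that it varies like the other groups. With a term for title style the log2 fold change was -1.46 (adjusted p = 0.0408, edgeR). Against sham, Efna5 had log2 fold changes of -0.85 ± 0.26 in SE-cKO (adjusted p = 0.0502) and 1.09 ± 0.32 in SE-WT (adjusted p = 0.103). Efna5 made up 5.09 ± 1.10% of the TPM of the 5 ephrin-A genes in SE-cKO and 10.9 ± 4.14% in SE-WT.

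Epha8, an Eph receptor of low level here, had 1.68, 0.911 and 0.925 CPM in SE-cKO and 1.64, 6.61 and 9.997 CPM in SE-WT, beside 3.01, 17.4, 2.41 and 3.62 CPM in sham-cKO and 2.79, 2.64 and 2.16 CPM in sham-WT. The high values were those of the 3 libraries high in thalamic or striatal genes, and the other libraries lay between 0.911 and 3.62 CPM. The log2 fold change of SE-cKO over SE-WT was -2.35 ± 0.64 (adjusted p = 0.347, edgeR), against -0.48 without those 3 libraries. Against sham it was -2.44 ± 0.76 in SE-cKO (adjusted p = 0.0510) and 1.26 ± 0.57 in SE-WT (adjusted p = 0.272), the last of which was -0.60 without those libraries. Robo1 had -1.04 ± 0.31 between SE-cKO and SE-WT (adjusted p = 0.369, edgeR), and -0.30 without them. Epha2 had 1.01 ± 0.28 (adjusted p = 0.347) and Sema3d 0.78 ± 0.23 (adjusted p = 0.369), and for both every SE-cKO library was above every SE-WT library, as given above. Without the 3 libraries the Sema3d difference was 0.33 (adjusted p = 0.611).

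The difference of the SE effect between genotypes, cKO minus WT, was tested as an interaction over all 13 libraries. In edgeR 0 of 64 guidance genes were called, beside 0.0841% of 22596 genes with a positive and 0.0752% with a negative interaction, and 8 had an unadjusted p below 0.05, beside 12.5%. DESeq2 called 0 positive and 3 negative (Efna5, Epha8 and Robo1), beside 1.58% and 1.61% of all genes, and limma voom called 0. The interaction was -1.94 ± 0.43 for Efna5 (adjusted p = 0.112, edgeR), -3.70 ± 1.05 for Epha8 (adjusted p = 0.179) and -1.27 ± 0.33 for Robo1 (adjusted p = 0.162). Without the 3 libraries rich in striatal or thalamic transcripts the values were -2.30, -0.72 and -0.44, smaller in size for Epha8 and Robo1 but not for Efna5. The SE-WT group was then replicate 1 alone. Of the SE-WT libraries it had the highest Efna5 value (17.8 CPM) and the lowest Epha8 and Robo1 values. That fit cannot tell an effect of the libraries left out from the values of the library that remained. Robo1 was also called without SE-WT replicate 1, which leaves the libraries high in those genes as the SE-WT group (log2 -1.53, adjusted p = 0.0475, edgeR). Epha4 and Sema4c, called in both genotypes, had interactions of -0.06 ± 0.25 (adjusted p = 0.952) and 0.12 ± 0.20 (adjusted p = 0.857).

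**Figure D4:**
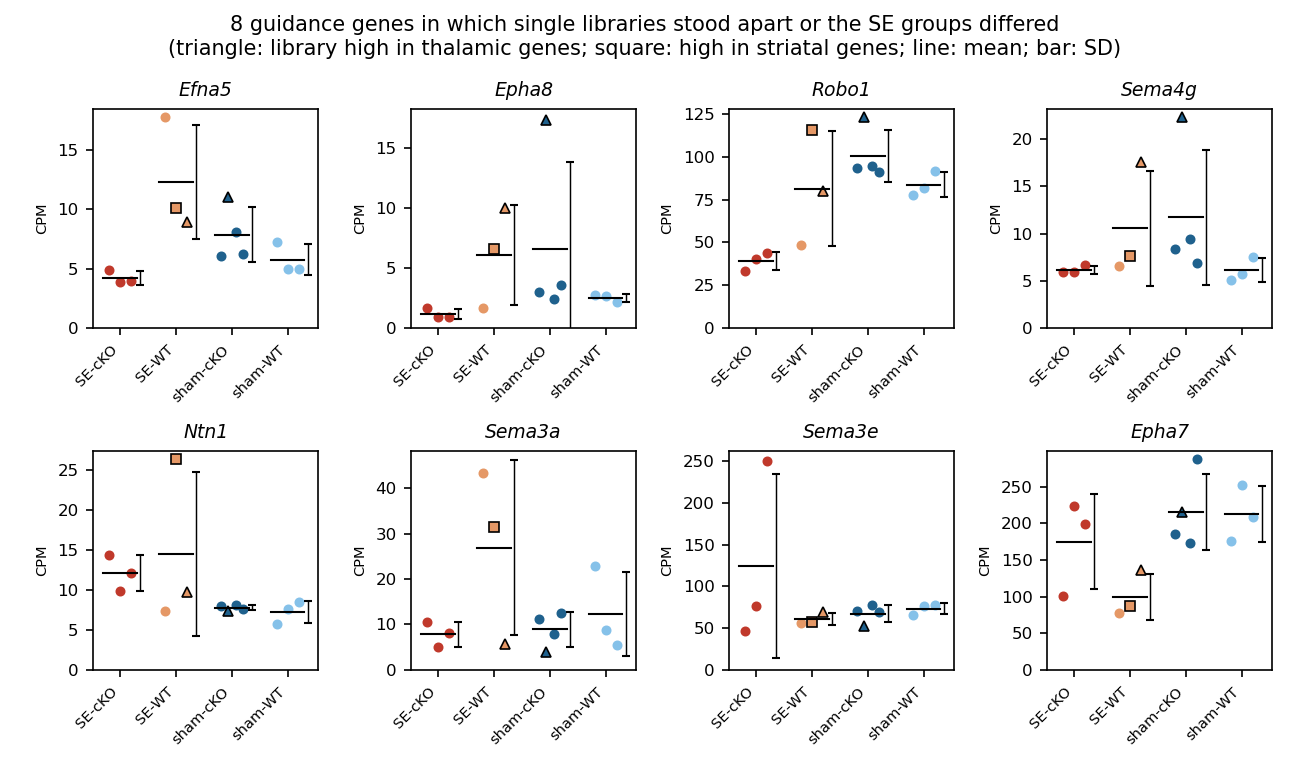
CPM in each library for 8 guidance genes, with triangles for the libraries high in thalamic genes (SE-WT replicate 3 and sham-cKO replicate 2), a square for the library high in striatal genes (SE-WT replicate 2), a line at the mean and a bar of 1 SD. Epha8 was highest in the marked libraries, at 6.61, 9.997 and 17.4 CPM, whereas Efna5 was highest in the unmarked SE-WT replicate 1, at 17.8 CPM.

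The effect of LIN28A deletion without SE was compared in sham mice. Of 64 guidance genes 0 were called in sham-cKO against sham-WT by edgeR, beside 0% of 20785 genes, and 0 had an unadjusted p below 0.05, beside 5.54% of all genes. DESeq2, which called 0.0818% of all genes, and limma voom also called 0 guidance genes. Libraries did not overlap for 1 higher gene (Sema6a) and 1 lower gene (Ephb3), where 3.69% and 4.02% of all genes did not. Sema4g, a class 4 semaphorin, had the smallest p, with 8.33, 22.3, 9.39 and 6.85 CPM in sham-cKO and 5.07, 5.71 and 7.54 CPM in sham-WT. Its highest value came from sham-cKO replicate 2, the library high in thalamic genes. The log2 fold change was 0.96 ± 0.42 (adjusted p = 0.868, edgeR), and 0.42 without the 3 libraries named above. Sema4g had 5.91, 5.89 and 6.65 CPM in SE-cKO and 6.54, 7.59 and 17.6 CPM in SE-WT, where replicate 3, also high in thalamic genes, was the highest. Robo1 had a log2 fold change of 0.28 ± 0.13 (adjusted p = 0.868), and Sema3f, a secreted ligand of Nrp2, one of -0.56 ± 0.26 (adjusted p = 0.868). Sema3f had 3.14, 3.15, 5.31 and 2.93 CPM in sham-cKO and 4.74, 4.71 and 6.79 CPM in sham-WT, and 5.77, 1.78 and 2.29 CPM in SE-cKO and 4.05, 11.1 and 6.28 CPM in SE-WT, with 1 sham-cKO library inside the sham-WT range.

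The partners of these ligands and receptors were followed in 7 lists of 75 genes that are not among the 64. After SE, 10 of 75 rose and 23 fell in cKO mice (median log2 fold change -0.31), beside 13.8% and 8.92% of all genes, and in WT mice 6 rose and 1 fell (median 0.05), beside 4.57% and 0.832%. With 1 library left out the count that fell in SE-cKO ranged from 12 (without SE-cKO replicate 2) to 24, and the count that rose in SE-WT from 0 (without sham-WT replicate 2) to 6. In SE-cKO against SE-WT and in sham-cKO against sham-WT 0 of the 75 were called by edgeR, and DESeq2 called 5 lower in SE-cKO against SE-WT, beside 1.08% of all genes, and 0 in sham mice. Of 8 other receptors for netrins, draxin and RGM proteins, 3 fell in SE-cKO and 0 were called in SE-WT: the netrin receptor Dcc (-1.10), the repulsive netrin receptor Unc5c (-0.69) and Dscam (-1.01, log2 fold changes). Of 8 other guidance ligands, 4 fell in SE-cKO and 0 were called in SE-WT, among them Ntng1, also known from the thalamus (-2.07), Flrt1 (-0.76) and Flrt2 (-0.66), the last ones known as ligands of Unc5 receptors. Ntng1 had 24.6, 20.7 and 20.97 CPM in SE-cKO, against 51.3, 234.8, 45.01 and 51.2 CPM in sham-cKO, the high value being that of replicate 2, the library high in thalamic genes. Without sham-cKO replicate 2 its log2 fold change was -1.12 (adjusted p = 0.00114, edgeR), and Flrt1 was no longer called (-0.71, adjusted p = 0.0667). Of 8 adhesion co-receptors, 3 fell in SE-cKO, L1cam (-1.35), Cntn1 (-0.87) and Alcam (-0.91), and 0 were called in SE-WT.

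Of 13 Eph and ephrin effectors, 1 rose and 6 fell in SE-cKO, and 2 rose and 1 fell in SE-WT. Chn1, whose products include α2-chimaerin, which acts downstream of Epha4, fell in both genotypes, as Epha4 did, with log2 fold changes of -1.16 in SE-cKO and -1.24 in SE-WT (adjusted p = 0.000848 and adjusted p = 0.0336, edgeR). The counts are for the whole gene and do not tell its protein forms apart. The exchange factor Kalrn fell in SE-cKO (-0.90), and Vav2, an exchange factor that acts after Eph receptors, rose in both (1.11 in SE-cKO and 0.86 in SE-WT). Of 16 semaphorin and plexin effectors, 4 rose and 3 fell in SE-cKO, and 2 rose in SE-WT. Fes, a kinase that binds plexins, rose by 2.65 in SE-cKO and 2.08 in SE-WT on the log2 scale, Mical1, an oxidoreductase that acts on actin after plexins, by 1.03 and 0.82, and Crmp1 fell in SE-cKO (-0.77). Of 11 Slit and Robo effectors, 1 rose and 3 fell in SE-cKO, and 1 rose in SE-WT: the exchange factor Dock1 rose in both (0.94 and 0.75), and Nck2 (-0.65) and Sos1 (-0.52) fell in SE-cKO.

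The interaction was called for 2 of these 75 genes, beside 0.0752% of all genes in the negative direction. L1cam, an adhesion molecule that associates with Nrp1 in the response to Sema3a, had 41.5, 40.9 and 42.4 CPM in SE-cKO, against 99.0, 153.2, 96.7 and 88.9 CPM in sham-cKO, and 89.1, 93.2 and 115 CPM in SE-WT, against 86.6, 75.8 and 79.2 CPM in sham-WT. All SE-cKO libraries lay below the other 10, all SE-WT libraries lay above sham-WT, and the highest value came from sham-cKO replicate 2, a library high in thalamic genes. Its interaction was -1.64 (standard error 0.25, adjusted p = 0.0418, edgeR). Grip2, a scaffold protein that binds ephrin-B ligands, had 3.06, 2.81 and 4.64 CPM in SE-cKO, against 6.36, 8.35, 5.49 and 6.13 CPM in sham-cKO, and 8.44, 10.1 and 10.2 CPM in SE-WT, against 5.32, 4.51 and 4.24 CPM in sham-WT. The SE-cKO libraries lay below sham-cKO and the SE-WT libraries above sham-WT, without overlap. Its interaction was -1.89 (standard error 0.31, adjusted p = 0.0433, edgeR). Both were also called by DESeq2 and limma voom, and neither with Xist level as a covariate (adjusted p = 0.0843 for L1cam and 0.0881 for Grip2) or with a replicate block (adjusted p = 0.149 and 0.181). Without the 3 libraries rich in striatal or thalamic transcripts the interactions were -1.32 (adjusted p = 0.0591) for L1cam and -1.60 (adjusted p = 0.178) for Grip2. With 1 library left out L1cam ranged from -1.74 to -1.43 and was called in 4 of 13 fits (without sham-cKO replicate 2, SE-WT replicate 1, SE-WT replicate 3 or SE-cKO replicate 3), and Grip2 ranged from -2.18 to -1.75 and was called in 2 (without SE-WT replicate 1 or SE-cKO replicate 3).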

How the data were processed

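RNA-Seq was performed on 13 hippocampus libraries labelled as 4 groups. The authors trimmed reads with Trimmomatic, used HISAT2 2.1.0 for alignment to mm10 and quantified genes with StringTie 2.1.3b, and deposited 1 table with a read count, an FPKM and a TPM for each gene and library. The deposited counts were used for every test and the deposited TPM only to compare levels between genes, and the deposited FPKM was not used. Strand and multi-mapping settings are not given in the sources used here.

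Counts were tested with edgeR 4.0.16 in R 4.3.3 (robust quasi-likelihood test, TMM factors, filterByExpr with a minimum count of 10 and a minimum total of 15), in the libraries of the 2 groups compared, and for the interaction in all 13 libraries. The p-values were adjusted over all genes tested (Benjamini-Hochberg, threshold 0.05). CPM values are counts scaled to a fixed library total with TMM factors over all 13 libraries. The fits were tested on simulated data. Replicate libraries differed by 51.3 to 468 times the sampling variance, so the spread between libraries exceeds counting error by far. The study's methods name no test for differential expression in the RNA-Seq data. Alternatives were DESeq2 1.42.0, limma 3.58.1 (voom with quality weights), RLE size factors, no filter on low counts, all groups in 1 fit, a replicate block, a term for the style of the sample titles, Xist level as a covariate, a fit without the 3 libraries rich in striatal or thalamic transcripts, and each library left out.

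The guidance genes, the pathway and marker lists and the alternatives were chosen with earlier results of these data known. Values in each library are given, per family, for up to 4 genes with the smallest p called in SE-cKO and up to 3 called in SE-WT, for the gene with the highest TPM in sham libraries, and for the 5, 3 and 3 genes with the smallest p between SE groups, between sham groups and for the interaction. In the pathway lists, up to 3 called genes with the smallest p were named per comparison. The total over the pathway lists includes 1 list that is not reported here. Upstream sequences came from RefSeq (GRCm38.p6) and exon overlaps from an annotation of the same build. Of the 64 genes, 56 had an upstream sequence.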

Additional observations from a re-analysis of the deposited data

Results flagged for a closer look

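In sham-cKO, the group with 4 libraries, 5 of 28 guidance genes tested had 1 library whose gap to the nearest other library exceeded Dixon's critical share of the group's range on the log2 CPM scale. These 28 genes had been named mostly for small p in these data and share the same 4 libraries. The count can therefore not be set against the 1 in 20 of unselected, independent genes, and the share over all genes was not computed. Robo1 had 123.5 CPM in sham-cKO replicate 2, against 90.9 to 94.3 CPM in the other 3 libraries, and Slit1 had 89.0 CPM in the same library, against 158 to 173 CPM. Sham-cKO replicate 2 was also the library with 1794 CPM of thalamic genes, and their part in these values was not tested. Plxnb2 had 75.1 CPM in sham-cKO replicate 3, against 53.7 to 56.3 CPM, and Sema3f had 5.31 CPM in that library, against 2.93 to 3.15 CPM. Epha2 had 0.750 CPM in sham-cKO replicate 4, against 1.23 to 1.35 CPM. The calls of Robo1, Slit1, Plxnb2 and Epha2 in SE-cKO against sham-cKO held without each of these libraries.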

How the results depend on the processing

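No result turned its direction while called. In SE-WT against sham-WT the 2 guidance genes called higher became 5 with DESeq2, 5 with limma voom, 4 with all groups in 1 fit, 4 with a term for title style and 5 without the 3 libraries rich in striatal or thalamic transcripts, and 0 to 2 with 1 library left out. The 2 called lower became 10 with DESeq2, 5 with limma voom, 4 with all groups in 1 fit, with the title term, with the Xist covariate and without the 3 libraries, 1 with no filter on low counts, and 0 to 4 with 1 library left out. In SE-cKO against sham-cKO the 9 called higher ranged from 5 to 9 with 1 library left out, and the 9 called lower became 14 with DESeq2 and 15 without the 3 libraries, and 6 to 14 with 1 library left out. In SE-cKO against SE-WT the 0 called higher became 1 with DESeq2, and the 0 called lower became 2 with DESeq2, 1 with the title term and 1 without the 3 libraries, with 0 to 0 when 1 library was left out. The 0 negative interactions became 3 with DESeq2 and 0 to 1 with 1 library left out. The calls over all genes moved as well. In WT mice after SE the main fit called 951 of 20803 genes higher and 173 lower. DESeq2 called 1895 and 797, and limma voom 1509 and 587. Fits of all groups tested 22596 genes. They called 1405 and 368, or 1456 and 464 with the title term and 1348 and 497 with the Xist covariate. In cKO mice 2937 and 1901 became 3475 and 2790 with DESeq2. A shift in guidance counts between fits is thus not by itself a property of these genes. The causes were not tested.

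The replicate numbers did not pair the libraries, since deviations of same-numbered libraries correlated at -0.0843 to 0.288 and not all above 0.1. With a replicate block, the counts in SE-cKO against sham-cKO were 4 higher and 4 lower, and in SE-WT against sham-WT 0 higher and 1 lower. With 3 or 4 libraries a group, smaller changes may have gone uncalled. Genes at a few CPM or less rest on fewer counts. The lowest count in a library was 0 for Epha1, 20 for Efna4, 45 for Epha2, 63 for Epha8 and 90 for Robo4.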

Other observations

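Some guidance genes had single libraries that stood apart. Sema3e, a secreted ligand of Plxnd1, had 46.2, 76.1 and 251 CPM in SE-cKO, against 55.8, 57.2 and 68.9 CPM in SE-WT, and its log2 fold change of 1.06 between these groups was 0.03 without SE-cKO replicate 3. Sema3a, the ligand of Nrp1, had 43.4, 31.5 and 5.73 CPM in SE-WT, against 22.9, 8.68 and 5.44 CPM in sham-WT, and 10.5, 4.98 and 8.08 CPM in SE-cKO, against 11.3, 3.93, 7.91 and 12.6 CPM in sham-cKO. Sema3b, a secreted semaphorin, was highest in sham-WT replicate 3 (15.2 CPM), sham-cKO replicate 3 (9.88 CPM) and SE-cKO replicate 1 (7.91 CPM), and the 8 choroid plexus genes summed to 4582, 2786 and 1181 CPM in these libraries, against 25.9 to 1524 CPM in the others. None of these genes was called in SE-cKO against SE-WT, and the part of choroid plexus in the Sema3b values was not tested.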
